A study of Homo sapiens with 12 samples.

Results

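The respiratory chain subunits encoded in the nucleus were taken as the protein-coding genes whose current symbols begin with NDUFA, NDUFB, NDUFC, NDUFS or NDUFV (assembly factors named NDUFAF left out), SDHA to SDHD, UQCR and CYC1, the COX4 to COX8 subunits, and ATP5. This gave 88 of the 60483 genes counted, of which 37 belong to complex I, 4 to complex II, 10 to complex III, 19 to complex IV and 18 to complex V. NDUFA4 and NDUFA4L2, first assigned to complex I, were counted with complex IV. Pseudogenes, readthrough genes and ATP5IF1, an inhibitor of the synthase, were left out. The libraries came from HEK293 cells, a human embryonic kidney line, carrying an inducible Flp-In T-REx cassette. In the mut cells the cassette encodes the catalytic mutant of DIS3L2, and in the WT cells the wild-type protein. Both forms are recoded and carry a C-terminal FLAG tag, both cassettes also express sh-miRNAs against the endogenous DIS3L2 message, and both sets of cells received 100 ng/ml doxycycline for 3 days. Each variant has 3 total RNA libraries, depleted of rRNA and prepared with strand information, and 3 TAP-treated small RNA libraries with inserts of 20 to 200 nt. The labels call them replicates without saying that they were separate cultures, nor how many lines stand for each variant, so the p-values given here reflect library-to-library spread that may be technical.

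Complexes I to IV of the inner mitochondrial membrane pass electrons from NADH and succinate to oxygen, and complexes I, III and IV pump protons, which drive ATP synthesis by complex V. All but complex II combine subunits encoded in the nucleus with subunits encoded in mitochondrial DNA. DIS3L2, an exoribonuclease of the cytoplasm, prefers RNA substrates with uridine tails, and nuclear subunit messages are translated in that compartment.

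Total RNA libraries held 8315986 to 12675042 counts in genes. A further 57.8% to 63.2% of deposited reads named no gene. Reads outside genes made up 12.3% to 13.7% of the mut and 16.6% to 19.4% of the WT reads, and reads over several genes 8.6% to 9.9% of the mut and 6.9% to 8.3% of the WT reads. Reads with several alignments made up 37.3% to 42.0% of the mut and 30.5% to 39.5% of the WT reads. The part of these classes in the results was not tested. DIS3L2, cassette and endogenous transcripts together, averaged 1092 ± 51.6 CPM in mut and 784 ± 25.8 CPM in WT (SD, n = 3 each), a log2 fold change of 0.48 (adjusted p = 1.9e-07). The gene count does not show which variant was made. Of 11 markers of HEK293 cells 9 exceeded 1 CPM, with sums of 1955 to 2062 CPM in mut and 1623 to 1769 CPM in WT. Of 6 blood markers 5 were at 0 in every library, and summed hepatocyte and muscle markers stayed under 0.7 CPM. Of 6 fibroblast markers COL1A2, DCN and LUM were at 0, and the list summed to 4.48 to 6.70 CPM in mut and 2.59 to 3.52 CPM in WT.

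Most nuclear subunit messages stood at similar levels in mut and WT cells. A gene was called when its adjusted p from the edgeR quasi-likelihood test was under 0.05 (Benjamini-Hochberg over 14409 genes). Of the 80 subunit genes that passed the count filter 10 were higher, 1 was lower and 69 were not called. Among all genes tested 27.2% were called, 13.0% as higher and 14.2% as lower, so the count of higher subunits was near the background while 1 lower call stood against a background of 14.2%. Among nuclear protein-coding genes 28.2% were called, 13.2% as higher and 15.0% as lower. A fit over those genes alone called 14 subunits higher and 1 lower, where it called 15.2% and 14.2% of genes. The median log2 fold change of mut over WT was 0.07 for the subunits and −0.01 for all genes, and 60 subunits had a positive and 20 a negative value. The 3 mut libraries lay wholly above the 3 WT libraries for 19 subunits and wholly below for 5, against 19.4% and 21.2% of all genes. Of the 80 subunits 40 span up to 10 kb, and protein-coding genes of that span had a median of 0.07, with 358 higher and 140 lower of 2309, so the background for short genes also lay on the higher side. Of the 80, ATP5PF alone differed by more than 1.5-fold. In bulk libraries fewer cells of a type and less RNA per cell cannot be told apart.

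The 69 genes not called had log2 fold changes between −0.17 (NDUFC2) and 0.28 (NDUFV2), with standard errors of 0.054 to 0.33. For 67 of them the 95% interval of the fold change lay within 1.5-fold in either direction. At an unadjusted p under 0.05 there were 22 subunits, 11 of them not called after adjustment. The subunits were counted more deeply than most genes, with a median total of 3872 counts over the 6 libraries against 1319 for all genes tested, and a median standard error of 0.074 against 0.098. DESeq2 called 8 subunits higher and 1 lower, where it called 9.13% and 9.42% of all genes.

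**Figure D1:**
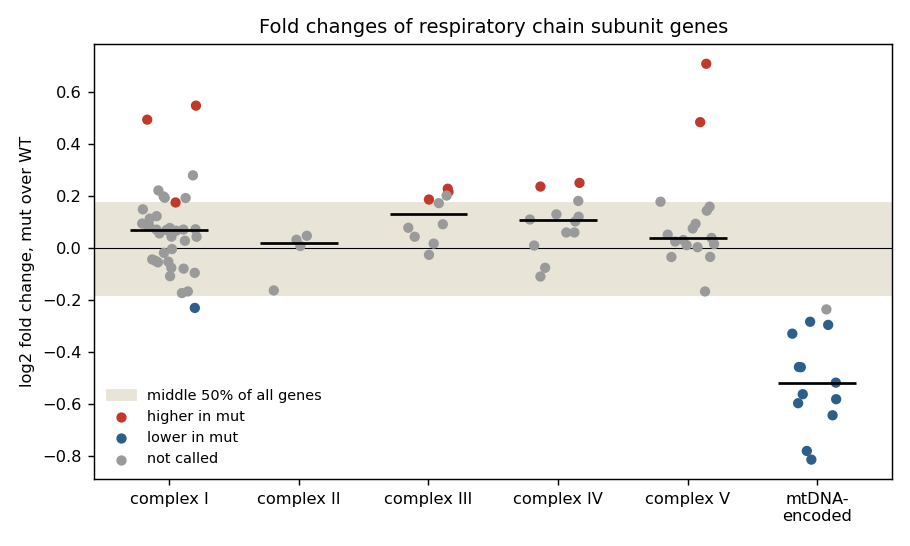
Log2 fold change, mut over WT, of each tested nuclear subunit gene by complex (horizontal axis) and of the 13 subunit genes in mitochondrial DNA (mtDNA). Points are genes, black bars are medians, and the shaded band runs from the first to the third quartile of all genes tested; nuclear medians lie between 0.02 and 0.13, and the mitochondrial median is −0.52.

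Complex I takes electrons from NADH. All 37 of its genes were tested, and 3 were higher, 1 was lower and 33 were not called, at a median of 0.07 on the log2 scale. The called genes that were higher, NDUFS4, NDUFS6 and NDUFV1, all encode subunits at the NADH-oxidising end of the complex. This grouping was made after the values were seen, and other subunits of that end, given below, were not called. NDUFS4 (ENSG00000164258.10, chr5:53560639-53683338), an accessory subunit whose loss is a known cause of Leigh syndrome, had 37.4, 37.2 and 36.9 CPM in mut and 25.1, 26.1 and 24.9 CPM in WT. The groups were far apart and each was tight, with a log2 fold change of 0.55 (SE 0.08, adjusted p = 1.8e-05). NDUFS6 (ENSG00000145494.10, chr5:1801407-1816048), an accessory subunit that binds zinc, had 53.1, 49.4 and 58.8 CPM in mut and 36.3, 39.9 and 38.2 CPM in WT. The groups did not overlap, and the log2 fold change was 0.49 (SE 0.08, adjusted p = 4.8e-05). MRPL36, a gene for a mitochondrial ribosomal protein that overlaps the start of NDUFS6, also rose, by 0.64 (adjusted p = 2.5e-06). The strand setting of the counting is not given in the sources used here, so reads of these neighbours may not be fully separated.

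NDUFV1 (ENSG00000167792.10, chr11:67606936-67612554), the core subunit that binds NADH and flavin, had 116, 107 and 112 CPM in mut and 96.8, 105 and 93.9 CPM in WT. The groups came close without overlapping, with a log2 fold change of 0.18 (SE 0.07, adjusted p = 0.049). This call was lost without WT library 1 (adjusted p = 0.163), WT library 3 (0.160), mut library 1 (0.103) or mut library 3 (0.079), and with DESeq2 (0.076). Other subunits of the NADH-oxidising end, named after their values were seen, were not called, with 0.28 for NDUFV2, 0.15 for NDUFV3, 0.19 for NDUFA2, 0.04 for the large iron-sulphur protein NDUFS1 and −0.10 for NDUFA12. NDUFA10 (ENSG00000130414.10, chr2:239892442-240025342), an accessory subunit of the membrane arm, was the single lower gene. It had 70.3, 71.6 and 66.8 CPM in mut and 81.7, 79.6 and 83.9 CPM in WT, groups that did not overlap (log2 fold change −0.23, SE 0.07, adjusted p = 0.011). NDUFA10 was no longer called without WT library 3 or mut library 3 (adjusted p = 0.083 and 0.090).

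The promoter sequences of the complex I genes with the smallest adjusted p are given here because NDUFS6 holds an exact match to the letters of the NRF1 site and NDUFS4 holds none of the motifs searched in its 250 bases. Capitals in NDUFS6 mark that match. NRF1 is a transcription factor known to bind promoters of many respiratory genes. Sequences are from RefSeq, assembly GRCh38.p14, read 5′ to 3′ on the gene's strand. The NDUFS6 stretch (chr5:1801351-1801379, plus strand) lies within the span of MRPL36, and the NDUFS4 stretch (chr5:53560489-53560638, plus strand) is the 150 bases before the start.
NDUFS6: cagaagccgtGCGCATGCGttagcgctaa
NDUFS4: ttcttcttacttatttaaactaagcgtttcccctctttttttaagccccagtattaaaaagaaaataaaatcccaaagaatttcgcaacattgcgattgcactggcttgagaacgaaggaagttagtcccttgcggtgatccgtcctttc

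Complex II, succinate dehydrogenase, is made only of nuclear subunits, and none of its 4 genes was called (at an unadjusted p under 0.05 SDHC alone passed, and DESeq2 called none). Without WT library 2 edgeR called SDHC lower (adjusted p = 0.038). SDHA, the flavoprotein, had 132, 133 and 141 CPM in mut and 136, 136 and 131 CPM in WT. SDHB, the iron-sulphur protein, had 171, 174 and 169 CPM in mut and 168, 167 and 168 CPM in WT. The membrane anchor SDHC had 45.9, 50.7 and 48.4 CPM in mut and 55.8, 49.8 and 57.4 CPM in WT, and SDHD had 42.5, 50.3 and 39.3 CPM in mut and 46.7, 39.4 and 42.0 CPM in WT. The log2 fold changes were 0.01, 0.03, −0.16 and 0.05 in that order, with standard errors of 0.06 to 0.09.

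Complex III passes electrons from ubiquinol to cytochrome c. Of its 10 genes 3 were higher and none was lower, with a median of 0.13, and 9 had a positive log2 fold change. Of all genes 13.0% were higher, and 7024 of 14409 had a positive value. After each library was corrected for gene span, as described below, 1 complex III gene was higher and the median was 0.03. Without WT library 3 also 1 was higher, at a median of 0.15, whereas RLE and upper-quartile scaling each gave 4 higher. UQCRB (ENSG00000156467.8), an accessory subunit near a ubiquinone site, had 89.2, 84.2 and 86.6 CPM in mut and 74.7, 74.5 and 72.9 CPM in WT. Every mut library was above every WT library (log2 fold change 0.23, SE 0.07, adjusted p = 0.010). CYC1 (ENSG00000179091.4), the cytochrome subunit that hands electrons on to cytochrome c, had 188, 188 and 180 CPM in mut and 159, 170 and 149 CPM in WT. These groups also stood apart (log2 fold change 0.22, SE 0.06, adjusted p = 0.010), and the call was lost without WT library 3 (adjusted p = 0.066).

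UQCRC1 (ENSG00000010256.9, chr3:48599002-48609646), a core protein of complex III, had 226, 199 and 218 CPM in mut and 170, 204 and 190 CPM in WT. Its groups overlapped, since mut library 2 was below WT library 2, and the log2 fold change was 0.19 (SE 0.07, adjusted p = 0.039). The call was lost without WT library 1 (adjusted p = 0.281), WT library 3 (0.068), mut library 1 (0.094) or mut library 3 (0.085), and with DESeq2 (0.059). UQCRQ, a small subunit, lay just outside the threshold (log2 fold change 0.17, adjusted p = 0.055), with its mut libraries above its WT libraries. The other core protein, UQCRC2, had −0.03 and the Rieske iron-sulphur protein UQCRFS1 had 0.09, neither of them called. UQCRH had 211, 210 and 197 CPM in mut and 189, 196 and 200 CPM in WT, and its intronless copy UQCRHL had 10.9, 10.1 and 10.0 CPM in mut and 8.27, 9.01 and 9.83 CPM in WT. These copies are nearly identical, so how reads were split between them is uncertain.

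Complex IV, cytochrome c oxidase, reduces oxygen. Of its 12 tested genes 2 were higher and none was lower, with a median of 0.11. COX7A2L (ENSG00000115944.13, chr2:42335559-42368957), a relative of the COX7A subunits known to join complexes III and IV, had 81.5, 81.0 and 73.2 CPM in mut and 69.5, 65.9 and 62.5 CPM in WT. The groups did not overlap (log2 fold change 0.25, SE 0.07, adjusted p = 0.0093). COX5A (ENSG00000178741.10, chr15:74919791-74938073), a subunit on the matrix side, had 71.1, 65.3 and 80.9 CPM in mut and 62.3, 64.5 and 57.1 CPM in WT. The lowest mut library of COX5A was close to the highest WT library, and the log2 fold change was 0.24 (SE 0.08, adjusted p = 0.025). COX5A was no longer called without WT library 1 (adjusted p = 0.061), WT library 3 (0.104) or mut library 3 (0.159).

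Complex IV has alternative subunits for particular tissues, and the libraries held the ubiquitous forms. COX4I1 had 217, 186 and 206 CPM in mut and 196, 196 and 191 CPM in WT, while COX4I2, its lung form, was at 0 in all 6 libraries. COX6A1 had 36.7, 31.4 and 32.7 CPM in mut and 39.1, 36.3 and 33.2 CPM in WT, while COX6A2, the form of heart and skeletal muscle, was at 0. COX7B had 123, 108 and 108 CPM in mut and 106, 101 and 103 CPM in WT, and COX8A had 42.0, 33.5 and 39.2 CPM in mut and 34.6, 38.1 and 33.1 CPM in WT. COX7B2 and COX8C were at 0. A count of 0 allows up to 3 counts in a library, which is 0.335 to 0.352 CPM in mut and 0.235 to 0.369 CPM in WT, for counting error only. None of the ubiquitous forms in these pairs was called.

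COX6B1 had 219, 185 and 181 CPM in mut and 197, 199 and 184 CPM in WT, whereas COX6B2, a testis form, had 0, 0 and 2 counts in mut libraries and 0, 0 and 1 counts in WT libraries. COX7A2 had 108, 86.1 and 96.3 CPM in mut and 85.7, 92.8 and 88.2 CPM in WT, whereas the muscle form COX7A1 had 0, 1 and 0 counts in mut libraries and 0, 1 and 1 counts in WT libraries. NDUFA4 had 73.0, 67.8 and 67.2 CPM in mut and 69.0, 63.3 and 67.7 CPM in WT. NDUFA4L2, known to replace it under hypoxia, had 6, 9 and 6 counts in mut libraries and 5 counts in each WT library. The rare forms did not pass the count filter and were not tested, so no change is given for them.

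Complex V, ATP synthase, held the largest subunit difference. Of its 17 tested genes 2 were higher and none was lower, with a median of 0.04. ATP5PF (ENSG00000154723.11, chr21:25724500-25735653), a coupling factor in the stalk that holds the catalytic head, had 47.3, 41.7 and 45.4 CPM in mut and 28.1, 27.2 and 26.9 CPM in WT. Each mut library was well above each WT library (log2 fold change 0.71, SE 0.08, adjusted p = 4.3e-07). GABPA, a transcription factor gene that overlaps the start of ATP5PF, had a log2 fold change of 0.16 (SE 0.08, adjusted p = 0.12) and was not called. As the strand setting of the counting is not known, reads of ATP5PF and GABPA may not be fully separated. ATP5F1A (ENSG00000152234.14, chr18:46080248-46104227), the alpha subunit of the catalytic head, had 971, 955 and 935 CPM in mut and 681, 699 and 665 CPM in WT. The groups did not overlap, and the log2 fold change was 0.48 (SE 0.05, adjusted p = 8.4e-08).

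ATP5F1B, the catalytic beta subunit that forms the head together with ATP5F1A, had 997, 912 and 980 CPM in mut and 830, 929 and 855 CPM in WT. Its groups overlapped, and with a log2 fold change of 0.14 (SE 0.05, adjusted p = 0.0503) it fell just short of the threshold. Alpha and beta subunits are present in equal number in the enzyme; the difference between their fold changes was not tested. The other head and stalk genes ATP5F1C, ATP5F1D, ATP5F1E, ATP5PB, ATP5PD and ATP5PO had −0.03 to 0.16 and were not called. ATP5MC1, ATP5MC2 and ATP5MC3 encode the same mature ring subunit. ATP5MC1 had 56.5, 43.8 and 46.2 CPM in mut and 53.3, 59.0 and 51.7 CPM in WT, a log2 fold change of −0.17 that was not called, and the others had 0.02 and 0.05. ATP5MG had 74.9, 64.4 and 69.2 CPM in mut and 64.5, 68.8 and 71.0 CPM in WT, while ATP5MGL, an intronless relative, had 2, 3 and 3 counts in mut libraries and 2, 7 and 6 counts in WT libraries and was not tested. The inhibitor gene ATP5IF1, no subunit, averaged 44.5 ± 3.35 CPM in mut and 44.8 ± 0.61 CPM in WT (SD, n = 3 each).

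Promoter sequences of the called complex V genes differ in the motifs they hold and are shown for that reason. The ATP5PF stretches (minus strand, RefSeq GRCh38.p14) hold exact matches for NRF1 (chr21:25735156-25735184), YY1 (chr21:25735094-25735121) and the ETS family, to which GABPA belongs (chr21:25735068-25735094). They lie before the start site listed for ATP5PF and within the RefSeq spans of ATP5PF and GABPA. The 150 bases before the ATP5F1A start (chr18:46104228-46104377, minus strand) hold no match for NRF1, YY1 or ETS; the Sp1 letters, present 3 times in the 250 bases before that start, are not capitalised. The 250 bases before the ATP5PF start also hold 1 match each for the CCAAT box and the TATA box, not shown here. Capitals mark matches for NRF1, YY1 and ETS.
ATP5PF NRF1: cactcaaagaGCGCATGCGtacagagcaa
ATP5PF YY1: aggcgaagaaAAGATGGCggaggctgtg
ATP5PF ETS: gccaggggacCCGGAAGcacttaccct
ATP5F1A: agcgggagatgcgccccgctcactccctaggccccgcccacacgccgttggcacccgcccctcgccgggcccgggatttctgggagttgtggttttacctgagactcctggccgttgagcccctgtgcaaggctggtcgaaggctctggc

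**Figure D2:**
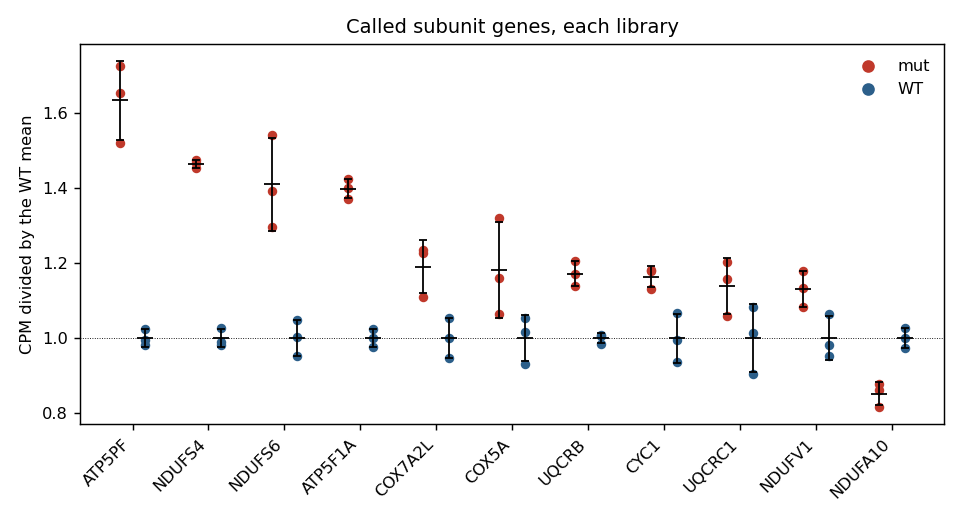
CPM of each of the 11 called subunit genes in each library, divided by that gene's WT mean (vertical axis), with mut left of WT. Points are libraries and bars are the mean and SD of 3 libraries; ATP5PF, NDUFS4, NDUFS6 and ATP5F1A show wide gaps between the groups, UQCRC1 shows overlapping groups, and NDUFA10 is the gene below its WT mean.

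The calls differ in how much they rest on single libraries. ATP5PF, NDUFS4, NDUFS6, ATP5F1A, UQCRB and COX7A2L were called in each of the 6 fits that left out a library in turn. CYC1 was kept in 5 of them, NDUFA10 in 4, COX5A in 3, and NDUFV1 and UQCRC1 in 2. Without WT library 3 there were 6 higher and 0 lower subunits, and calls over all genes were also fewer, 1474 higher and 1274 lower against 1867 and 2049 with all libraries (18.6% against 27.2% called).

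The CPM of a complex's subunit genes was summed in each library to describe its messages together, with no test of the sum. For complex I the sum was 2069 ± 63.4 CPM in mut and 1991 ± 45.8 CPM in WT, and for complex II 399 ± 8.88 CPM in mut and 399 ± 7.16 CPM in WT (SD, n = 3 each). The libraries of mut and WT overlapped for both. With another library scaling (RLE) the mut libraries of complex I lay above its WT libraries, while the other complexes grouped as given here. For complex IV the sum was 1197 ± 85.8 CPM in mut and 1140 ± 25.4 CPM in WT, again with overlap. Complex III summed to 1393 ± 40.1 CPM in mut and 1289 ± 20.2 CPM in WT, 8.06% higher, with no overlap. Complex V summed to 3444 ± 113 CPM in mut and 3028 ± 85.2 CPM in WT, 13.7% higher, with no overlap. ATP5F1A alone held 272 CPM of that difference of 416 CPM, or 65.3%. With ATP5F1A left out, a choice made after its values were seen, complex V was 6.16% higher and the mut and WT libraries overlapped. For complex III the largest single part was UQCRC1, with 26.1 of 104 CPM, and the mut libraries stayed above the WT libraries without it.

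Most subunits encoded in mitochondrial DNA stood lower in mut than in WT. Of these 13 genes 12 were lower and none was higher, against 14.2% and 13.0% of all genes, and the median log2 fold change was −0.52. MT-ND6 was not called (−0.24, adjusted p = 0.075). Their summed CPM in mut was lower by 29.6% for complex I, 36.3% for complex III, 21.0% for complex IV and 42.3% for complex V. In each of these sums all mut libraries were below all WT libraries. The nuclear sums of the same complexes were 3.93%, 8.06%, 5.03% and 13.7% higher, with mut and WT libraries overlapping for complexes I and IV. The difference between the genomes was not tested. WT library 3 was the highest of the 6 libraries for 12 of the 13 genes. Without it 8 were called lower, with a median of −0.34, and DESeq2 called 7.

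**Figure D3:**
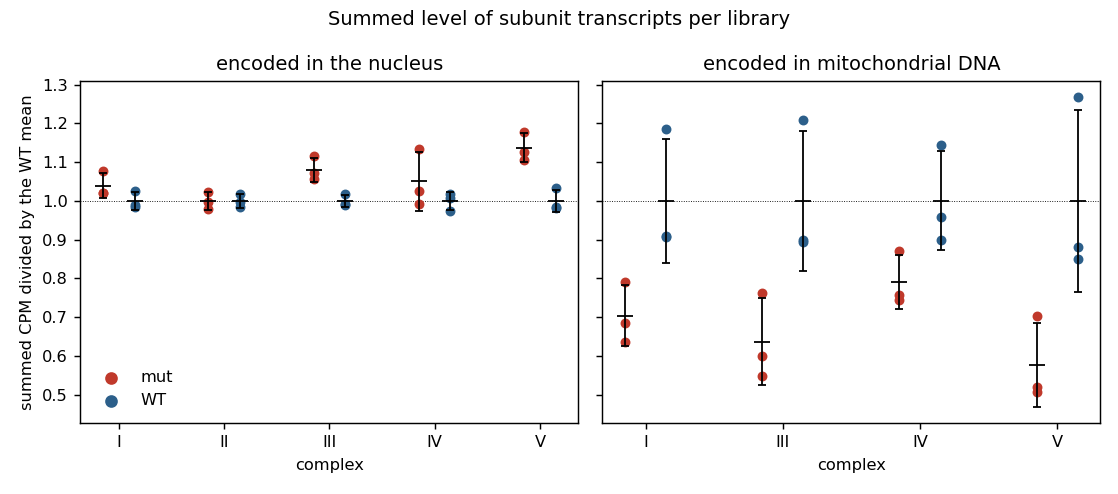
Summed CPM of the subunit genes of each complex per library, divided by the WT mean of the sum, for nuclear genes (left) and mitochondrial genes (right), with mut left of WT. Points are libraries and bars are the mean and SD of 3; nuclear sums stand near or above 1 in mut and mitochondrial sums below 1.

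Motifs were searched as exact letters on both strands in the 250 bases before the start, for the 71 subunit genes with a RefSeq promoter entry and for all 27305 promoters in the table. GCGCATGCG, for NRF1, was present in 9 subunit promoters (12.7%) and in 1.78% of all promoters. The looser GCGCANGCG, which includes those matches, was present in 21 (29.6%) and in 7.02%. CCGGAAG, bound by ETS factors such as GABPA, was present in 17 (23.9%) and in 8.82%. The shares for AAGATGGC (YY1) were 1.41% and 1.37%, for GGGCGG (Sp1) 53.5% and 42.3%, for the CCAAT box, CCAAT, 32.4% and 33.0%, and for the TATA box, TATAAA, 9.86% and 11.1%. Among protein-coding promoters alone NRF1 was found in 2.37%, the looser form in 9.72% and ETS in 11.8%. The NRF1 letters were found before NDUFB4, NDUFS6, NDUFS7, SDHD, COX6A1, ATP5F1C, ATP5MC2, ATP5ME and ATP5PF. Of these 9 genes NDUFS6 and ATP5PF were higher and 7 were not called. Of the 8 higher genes with an entry 2 held the NRF1 letters and 1 the ETS letters. Of the 57 genes not called 7 held the NRF1 letters and 16 the ETS letters. The relation of motifs to calls was not tested. UQCRC1 holds a pair of matches to the looser form in the 150 bases before its start (chr3:48609647-48609796, minus strand, RefSeq GRCh38.p14), shown with the matches in capitals as an example of that form.
UQCRC1: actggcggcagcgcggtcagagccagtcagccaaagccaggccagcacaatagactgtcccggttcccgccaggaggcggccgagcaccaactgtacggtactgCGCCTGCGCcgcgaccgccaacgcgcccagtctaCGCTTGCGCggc

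Messages of NRF1, YY1 and the GABPA pair were also read, and those of factors for the other motifs were not. NRF1 had a log2 fold change of −0.05 and GABPB1, the partner of GABPA, of −0.11, neither of them called, while YY1 was higher by 0.19 (adjusted p = 0.018). YY1 was not called without WT library 3 or mut library 3 (highest adjusted p = 0.075). The coactivator genes PPARGC1A and PPARGC1B had −0.35 and −0.22 and were not called (adjusted p = 0.11 and 0.05003).

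Whether a subunit gene moved with the genes beside it was described with the median log2 fold change of up to 20 other tested protein-coding genes on each side. The median was over 0.1 for 17 subunits, of which 6 were higher, and under −0.1 for 13, of which none was called. In between stood 50 subunits, 4 of them higher and 1 lower. Among all nuclear protein-coding genes tested 13.2% were higher and 15.0% lower. Across the 80 genes Pearson's r was 0.36 and Spearman's rho 0.20, given as a description, since genes share libraries and neighbours share positions. The same relation was not computed for other genes, so it is not shown to be particular to the subunits. The neighbours of COX5A had a median of 0.35, with 29 of 40 higher. Those of ATP5F1A had 0.28, with 19 of 40 higher, and HAUS1, which starts 158 bases away in the opposite direction, rose by 0.66 (adjusted p = 4.5e-07). On chromosome 18, where ATP5F1A and NDUFV2 lie, 113 of 183 other tested protein-coding genes were higher and none was lower. NDUFS4 had a neighbour median of 0.24, with 21 of 40 higher, and NDUFS6 of 0.19. The neighbours of ATP5PF had a median of 0.03, with 6 of 29 higher, and those of COX7A2L −0.09, with 2 of 40 higher. Close to ATP5PF, however, APP rose by 0.40 (adjusted p = 5.6e-05). JAM2 (0.69, adjusted p = 0.067) and GABPA (0.16), also close to it, were positive and not called. The part of chromosomal position in these differences was not tested.

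**Figure D4:**
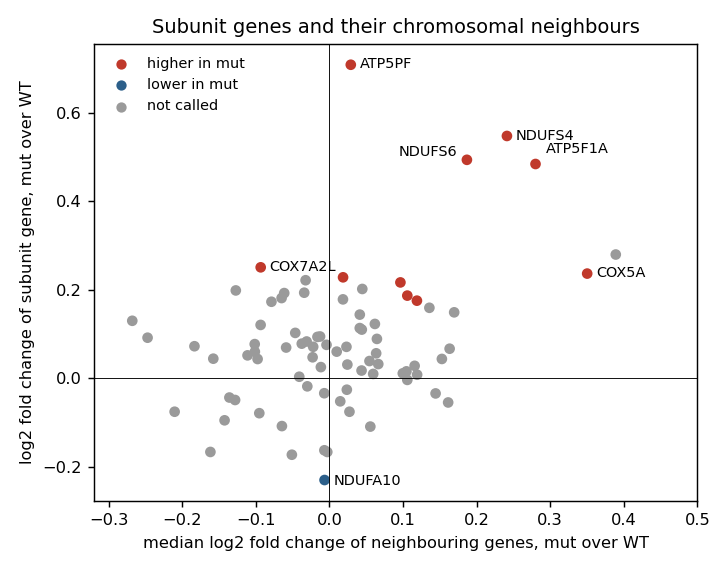
Log2 fold change of each tested subunit gene (vertical axis) against the median log2 fold change of its neighbouring genes (horizontal axis), mut over WT. Each point is a subunit gene; ATP5F1A, NDUFS4, NDUFS6 and COX5A have neighbour medians of 0.19 to 0.35, and ATP5PF has 0.03.

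The share of genes called differed with the span of the gene, a difference that was not tested. Among protein-coding genes spanning up to 10 kb 21.6% were called, 358 as higher and 140 as lower, and the 40 subunits of that span had 2 higher, 0 lower and a median of 0.06. Of genes over 10 and up to 50 kb 26.6% were called, 771 higher and 618 lower with a median of 0.01, and the 36 subunits there had 7 higher, 0 lower and a median of 0.07. Of longer genes 33.3% were called, 476 higher and 1067 lower with a median of −0.08, and the 4 subunits there had 1 higher and 1 lower. With the trend of fold change on span removed from each library 7 subunits were higher and 3 lower, where 13.7% and 13.8% of all genes were called. CYC1 (adjusted p = 0.055), NDUFA10 (0.064), NDUFV1 (0.158) and UQCRC1 (0.085) were then no longer called, ATP5MC1, COX7C and NDUFS5 were called lower, the subunit median was 0.02, and 45 subunits had a positive and 35 a negative value, against 60 and 20 without that step.

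Genes that serve the chain were read from the same fit, where 27.2% of all genes were called, 13.0% higher and 14.2% lower. In either direction 7.9% of assembly factors and 15.8% of genes of electron carriers and ubiquinone synthesis were called. For enzymes of the tricarboxylic acid cycle the share was 36.8%, and for regulators 33.3%. DESeq2 called 2 assembly factors higher and 2 lower, and 2 carrier genes higher and 1 lower. It called 4 cycle enzymes higher and 1 lower, and 2 regulators higher and 2 lower. Of all genes it called 9.13% higher and 9.42% lower. LYRM7 (adjusted p = 0.11), PC (0.069), POLG2 (0.084) and TWNK (0.13), given below, were not called by DESeq2. Of 63 assembly factors 2 were higher, COA6 (0.49), a copper-binding protein for complex IV, and NDUFAF2 (0.45), for complex I. Lower were NUBPL (−0.39), which delivers iron-sulphur clusters to complex I, TIMMDC1 (−0.27), and LYRM7 (−0.23), for complex III, and the median was 0.02. TIMMDC1 was lost without WT library 3 (adjusted p = 0.061), and LYRM7 was kept only without mut library 2 or WT library 2 (highest adjusted p = 0.362). Of 19 genes of electron carriers and ubiquinone synthesis COQ8A (0.61) and ETFA (0.32) were higher and ETFDH (−0.36) was lower, with a median of −0.03, and ETFDH was lost without mut library 3 or WT library 3 (highest adjusted p = 0.069). CYCS, which encodes cytochrome c, had −0.11 (adjusted p = 0.16).

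Of 19 enzymes of the tricarboxylic acid cycle and its entry steps 6 were higher and 1 was lower, with a median of 0.08. Among them IDH3A rose by 0.55, IDH2 by 0.55, OGDH by 0.36 and IDH3B by 0.29, all isocitrate or oxoglutarate dehydrogenase genes. These were called in each of the 6 fits without a library. IDH3G (−0.06) and DLST (0.08) of the same list were not called. IDH3A and IDH2 lie on chromosome 15, as do COX5A, ETFA and POLG. There 29 of the 40 neighbours of COX5A were higher, and the part of position was not tested. PC, pyruvate carboxylase, rose by 0.37, a call lost without WT library 2 or WT library 3 (highest adjusted p = 0.077) and with DESeq2. DLD, the shared dihydrolipoamide dehydrogenase, was lower (−0.42). Among 18 regulators of respiratory and mitochondrial transcription and replication, POLG, the catalytic subunit of the mitochondrial DNA polymerase, rose by 0.54, as did YY1 by 0.19. Lower were TFB1M (−0.63), MTERF1 (−0.43), POLG2 (−0.44), which encodes the accessory subunit of that polymerase, and the helicase gene TWNK (−0.21), with a median of −0.12. Without WT library 3 a single regulator was higher, POLG, and a single one lower, TFB1M. POLG2 was also lost without mut library 1 or mut library 3 (highest adjusted p = 0.072), and TWNK was kept only without mut library 2 (highest adjusted p = 0.182).

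Pseudogenes could take reads from the subunits. There are 188 named after 50 of the subunit genes, with COX6C having the most, 17. They held 2255 counts in all, against 463370 for the subunits, and none of the 5 tested was called by edgeR. Reads with several alignments, 30.5% to 42.0% of the reads of a library, were assigned to no gene. These counts therefore cannot show how many subunit reads were lost to copies. SDHAP3, SDHAP4 and SDHAP1 held 742, 573 and 248 counts.

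In the small RNA libraries, 12 of 10796 annotated features lay inside a subunit gene, and 3 of them had a fragment. SNORD59A, a box C/D small nucleolar RNA in ATP5F1B (chr12:56645027-56645101), was the only one with at least 30 fragments. Its signal was 213, 184 and 276 FPM in mut and 217, 193 and 172 FPM in WT. The groups overlapped, and the two-sided exact permutation test gave p = 0.50, where 3 libraries against 3 cannot go below 0.1. The strand of ATP5F1B was not known from the reference used here, so the snoRNA was kept by position alone. TRK-CTT6-1, a tRNA gene within ATP5F1A, had 5 fragments, and MIR7113, within NDUFS8, had 1.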

How the data were processed

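Total RNA values are raw read counts per Ensembl gene, as the authors deposited them; rows that name no gene entered neither library sizes nor tests. For small RNA the authors deposited, per the file headers, fragment counts, a depth-scaled signal (FPM) and FPKM; FPM was used here, and FPKM was not. Per the submitters' processing notes, the build was hg38 and the tools included HTSeq 0.6.1, STAR 2.4.0 and DESeq2 1.8.2, with no roles stated. Annotation version and strand setting: not given in the sources used here.

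Symbols were matched to 56321 of 60483 identifiers, and coordinates are from RefSeq GRCh38.p14. Counts were tested with edgeR 4.0.16 in R 4.3.3 (TMM, filterByExpr, quasi-likelihood F test, two-sided, group as the only term, Benjamini-Hochberg at 0.05), on 3 mut and 3 WT libraries. Each standard error is the size of the log2 fold change over the square root of F. CPM uses the TMM-scaled library size and is not divided by length, so levels of different genes are not compared. The script was tested on simulated data. Alternatives were RLE and upper-quartile scaling, other filters, DESeq2 1.42.0, a replicate block, nuclear protein-coding genes only, removal of the span trend, and leaving out each library. No replicate pair agreed within sampling noise (chi-square per degree of freedom 1.87 to 3.97).

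The genes named are every called subunit, members of isoform sets, subunits that failed the count filter, and called genes of the other lists; others are said to be chosen after their values were seen or are given with them. The most and least abundant subunit per length are not named, as no transcript lengths were used. The subunits, lists and tests were chosen with earlier results of these data known. SCO2 is not analysed here, and 1 called gene of the lists is not reported by name.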

Additional observations from a re-analysis of the deposited data

How the results depend on the processing

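The count of 10 higher subunits became 16 under upper-quartile scaling, where 2234 of all genes were higher and 1765 lower (1867 and 2049 with TMM), and that of 1 lower subunit became 3 with the span trend removed. Leaving out each library in turn gave 6 to 12 higher and 0 to 2 lower subunits, while over all genes 1327 to 1832 were higher and 1274 to 2109 lower. Across all genes DESeq2 called 1315 higher and 1357 lower. Replicate numbers gave no sign of pairing (correlations of deviations of −0.089, −0.073 and 0.032 for numbers 1, 2 and 3). Unlike numbers gave −0.107 to 0.171, and 3 libraries per group cannot exclude a pairing. With the replicate block 8 subunits were higher and 1 lower, without NDUFV1 and UQCRC1, among 1675 and 1845 genes.

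Among the named genes that were not called, the sign of some turned, mostly of values near 0; UQCRHL started at 0.20. With the span trend removed COX4I1 had −0.0028, COX6B1 −0.044, ATP5MC2 −0.020, ATP5MC3 −0.013, UQCRHL −0.033 and ATP5MG −0.028. With every counted gene tested COX6B1 had −0.0032. ATP5IF1 had 0.023 under upper-quartile scaling, 0.012 with a mean CPM of at least 5 and 0.0088 over nuclear protein-coding genes. With a library left out COX6B1 ranged over −0.074 to 0.079, ATP5MC2 over −0.040 to 0.078, ATP5MG over −0.017 to 0.083 and ATP5IF1 over −0.050 to 0.048. The cause was not tested. Floors cover counting error only, intervals of fold changes include the spread between libraries, and 3 libraries per group limit what a test can call.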
